A study of Mus musculus with 12 samples.

Results

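Cholesterol is built from acetyl-CoA through mevalonate, isoprenoid units, squalene and the sterol ring, and the genes of this route and of its control were described here in mouse liver and lung. The list held 31 genes, grouped by their roles: enzymes of the mevalonate and squalene steps, enzymes of the sterol ring steps, regulators of the transcription factor SREBP-2, and genes that move, esterify or remove cholesterol. A spot was taken where the gene name in the array file, or the symbol belonging to its Entrez number, equalled a listed name. By that rule 30 of the 31 genes had a spot, of 26228 gene symbols on the array. Acat2 had none. The 30 genes had 48 spots, and 14 of them had more than 1.

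The samples were RNA from female B6C3F1/Nctr mice, a hybrid strain, on 12 Agilent arrays read in a single colour (Cy3). There were 4 groups of 3 arrays: liver of untreated mice, liver of mice given acrylamide at 0.7 mM, lung of untreated mice and lung of mice given acrylamide at 0.7 mM. Controls were matched for age. The labels used here state neither the age nor how, and for how long, acrylamide was given. They also do not say whether the 3 arrays of a group are from different mice, so a p-value covers only the scatter among these samples, and that scatter could be technical. Arrays are named by tissue, treatment and the number in their titles (liver controls 1, 3 and 4, liver acrylamide 27, 29 and 30, lung controls 4, 5 and 6, lung acrylamide 28, 29 and 30).

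When sterols in the membrane of the endoplasmic reticulum run low, Scap carries SREBP-2, the product of Srebf2, to the Golgi, where it is cut so that its active part can enter the nucleus and switch on the genes of cholesterol synthesis. When sterols are plentiful, Insig1 and Insig2 hold Scap back. The liver is the main organ that makes cholesterol for lipoproteins and bile, whereas the lung uses cholesterol in surfactant, and its macrophages take up and export large amounts of it. SREBP-2 acts on promoters together with NF-Y, which binds the letters CCAAT, and with Sp1, which binds GC-rich letters.

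The promoters of 6 of the genes are shown because these genes anchor the results below. Hmgcs1 catalyses the entry into the mevalonate route and Lss turns squalene epoxide into lanosterol. Tm7sf2 and Sc5d had the widest differences between tissues among the enzymes, and Srebf2 and Insig1 are regulators. Each is the 250 bases before the start of the gene, 5′ to 3′ on the gene's strand, from RefSeq on GRCm38.p6. They lie at chr13:119690101-119690350 (Hmgcs1, plus strand), chr10:76531355-76531604 (Lss, plus), chr19:6067851-6068100 (Tm7sf2, minus), chr9:42264301-42264550 (Sc5d, minus), chr15:82147019-82147268 (Srebf2, plus) and chr5:28071162-28071411 (Insig1, plus). Capitals mark CCAAT on either strand, printed as ATTGG where it lies on the other strand, and TCACNCCA, a form of the sterol regulatory element, in which N is any base.
Hmgcs1: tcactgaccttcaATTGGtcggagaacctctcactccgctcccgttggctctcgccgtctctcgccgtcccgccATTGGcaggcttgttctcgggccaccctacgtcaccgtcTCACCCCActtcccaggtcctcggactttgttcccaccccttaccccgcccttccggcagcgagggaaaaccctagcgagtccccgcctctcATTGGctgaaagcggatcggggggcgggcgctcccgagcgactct
Lss: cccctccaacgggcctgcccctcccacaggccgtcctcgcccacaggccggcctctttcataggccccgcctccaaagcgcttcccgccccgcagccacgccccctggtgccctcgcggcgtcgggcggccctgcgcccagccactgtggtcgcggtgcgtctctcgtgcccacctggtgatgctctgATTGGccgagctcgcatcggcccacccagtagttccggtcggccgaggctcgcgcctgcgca
Tm7sf2: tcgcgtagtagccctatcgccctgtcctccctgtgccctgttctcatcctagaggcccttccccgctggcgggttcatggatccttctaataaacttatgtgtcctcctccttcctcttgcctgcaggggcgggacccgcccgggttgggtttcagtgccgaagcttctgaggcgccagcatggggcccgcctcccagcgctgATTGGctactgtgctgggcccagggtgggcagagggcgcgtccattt
Sc5d: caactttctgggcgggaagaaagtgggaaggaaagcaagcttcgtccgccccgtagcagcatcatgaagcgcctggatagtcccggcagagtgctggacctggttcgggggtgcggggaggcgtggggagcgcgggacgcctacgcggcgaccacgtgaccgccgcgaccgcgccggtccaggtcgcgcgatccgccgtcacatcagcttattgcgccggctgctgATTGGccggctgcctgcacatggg
Srebf2: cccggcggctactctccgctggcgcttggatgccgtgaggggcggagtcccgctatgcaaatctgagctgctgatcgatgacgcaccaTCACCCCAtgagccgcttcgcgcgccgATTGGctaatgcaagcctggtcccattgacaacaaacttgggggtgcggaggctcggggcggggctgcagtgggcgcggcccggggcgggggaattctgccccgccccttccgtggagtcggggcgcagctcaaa
Insig1: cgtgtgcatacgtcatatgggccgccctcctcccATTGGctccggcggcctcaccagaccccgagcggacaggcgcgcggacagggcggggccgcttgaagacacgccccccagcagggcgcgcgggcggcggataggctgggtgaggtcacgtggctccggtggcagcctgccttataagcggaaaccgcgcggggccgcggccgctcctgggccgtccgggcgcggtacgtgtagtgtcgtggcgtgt

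Hmgcs1 held 3 matches to CCAAT, ending 233, 172 and 41 bases before the start, and 1 match to TCACNCCA, 137 to 130 bases before the start. Srebf2 held 1 of each, with TCACNCCA 162 to 155 bases and CCAAT 135 to 131 bases before the start. In the Lss, Tm7sf2, Sc5d and Insig1 windows there was 1 CCAAT and no TCACNCCA. All the CCAAT matches in these 6 promoters were on the strand opposite to the gene, and none overlapped a TCACNCCA match, although the end of one motif can form the start of the other.

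Promoter windows were found for 24 of the 31 genes, Fdps, Fdft1, Sqle, Stard4, Npc1, Soat2 and Abcg1 being without one. CCAAT was present on either strand in 21 of the 24 (all but Acat2, Scap and Abca1), and in 14 of the 15 enzymes with a window, against 37.5% of 27025 genes. GGGCGG, the core of the Sp1 site, was present in 20 of the 24, all but Pmvk, Npc1l1, Soat1 and Lcat, against 35.4% of genes. The windows of the 24 genes were GC-rich, with a median of 61.6% G or C against 52.4% over all genes. CCAAT was present in 39.1% of the 9555 genes that hold GGGCGG. TCACNCCA was present in 3 of the 24 (Hmgcs1, Msmo1 and Srebf2) against 4.2% of genes. These motifs, and the promoters printed, were chosen after counts had been seen: longer or other forms were also searched, and CACGTG, the E-box, was present in 6 of the 24 against 6.86% of genes, CACCCCAC in 2 against 2.98%, TCACCCCAC in 1 against 0.555%, TCACNCCAC in 1 against 1.22%, and a form of TCACCCCAC longer by 1 base in 0 against 0.0814%. A match describes letters in a window and is not evidence of binding.

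Levels are log2 intensities relative to the 75th percentile of their own array, so that 0 is the level of that percentile, and differences are in log2 units. Among liver arrays that percentile ranged from 294.5 to 621.5 in intensity, and among lung arrays from 839.4 to 1376. Liver acrylamide 30 was the dimmest array, and its background limit was 16.77 where the other 11 arrays had 2.35 to 4.45. The tissue field of the labels says liver for all arrays, while the titles of 6 say lung. Hepatocyte markers were called lower in untreated lung for 14 of 14 genes, and markers of alveolar type 2 cells, the surfactant-producing cells, were called higher for 9 of 9, and the arrays are named by their titles. Lung transcripts were also seen on liver arrays. The surfactant gene Sftpc stood at 2.63 on liver acrylamide 27 and at -0.65 on liver acrylamide 29. On the other 4 liver arrays it was -7.45 to -5.60, and in lung 8.23 to 8.79. The airway club cell genes Scgb1a1 (2.35 and 1.29) and Cbr2 (1.19 and 0.13) were also highest in liver on arrays 27 and 29. With acrylamide in liver, 5 of 5 club cell markers and 6 of 8 alveolar type 2 markers were higher, against 46.9% of all genes, none called.

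In untreated tissue the synthetic route was far lower in lung than in liver. The 17 enzymes were lower in lung and all 17 passed the test (limma, Benjamini-Hochberg adjusted p under 0.05), with a median difference of -2.99. Of the 30 genes, 26 were called lower and 3 higher, whereas over all 22441 genes tested 42.4% were called lower and 32% higher, with a median difference of -0.28. The genes called higher in lung all belonged to the handling group: the exporter Abcg1, the esterifying enzyme Soat1 and the receptor-degrading ubiquitin ligase Mylip. In such whole-tissue samples fewer cells of a type and less RNA per cell cannot be told apart. The first number of the title is 19 on liver arrays and 18 on lung arrays, so what it stands for cannot be told apart from the tissue.

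**Figure D1:**
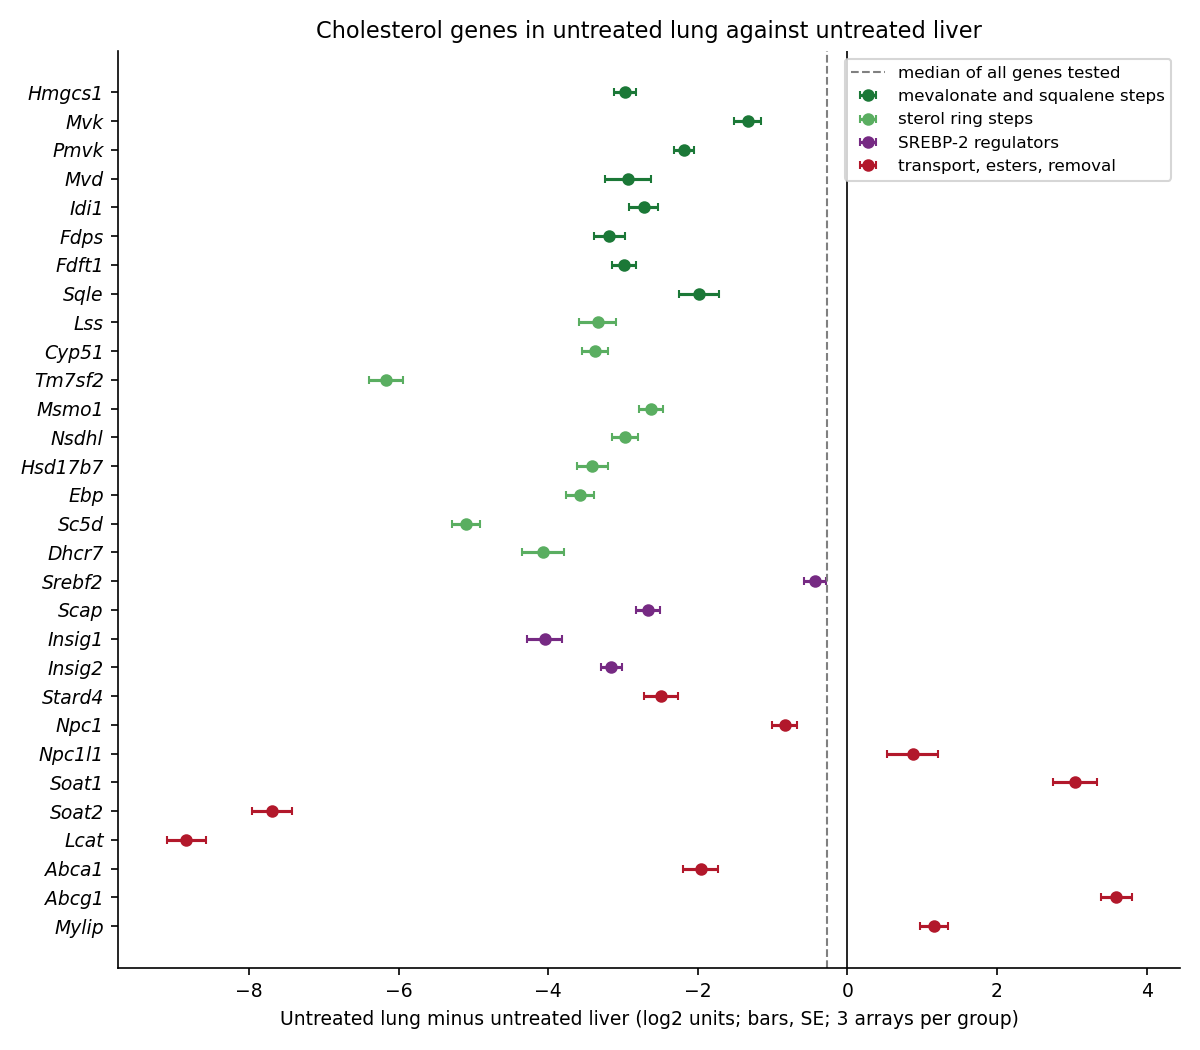
Untreated lung minus untreated liver for the 30 genes, in log2 units, with standard errors as bars and 3 arrays in each group. Colours give the role, the dashed line is the median of all genes tested (-0.28), and 26 genes lie below 0, from Srebf2 at -0.43 to Lcat at -8.84.

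Among the mevalonate and squalene enzymes, Hmgcs1, which condenses acetoacetyl-CoA and acetyl-CoA to HMG-CoA, stood at 7.456, 7.496 and 7.138 on liver controls 1, 3 and 4 and at 4.38, 4.40 and 4.40 on lung controls 4, 5 and 6. The lung arrays were nearly identical and lay far below every liver array. Its difference was -2.97 ± 0.15 (SE, 3 arrays against 3, adjusted p = 6.51e-06), which is a lung level 0.128 times that of liver. Sqle, the squalene epoxidase, stood at 4.88, 5.03 and 4.37 on the liver controls and at 2.90, 3.08 and 2.34 on the lung controls. Its spread between arrays was wider, the groups did not overlap, and the difference was -1.99 ± 0.26 (adjusted p = 5.57e-04). The other 6 enzymes of these steps were also called lower: the kinases Mvk by -1.34 ± 0.18 and Pmvk by -2.18 ± 0.13, the decarboxylase Mvd by -2.93 ± 0.31, the isomerase Idi1 by -2.72 ± 0.19, the farnesyl diphosphate synthase Fdps by -3.18 ± 0.21 and the squalene synthase Fdft1 by -2.99 ± 0.16. Mvk thus had the smallest difference of the 17 enzymes, and a spot for another Mvk transcript, which the rule did not take, differed by -1.59.

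The 9 sterol ring enzymes had a median difference of -3.41, against -2.83 for the 8 enzymes upstream of them. Tm7sf2, a sterol reductase of the ring, stood at 6.52, 6.71 and 6.46 on the liver controls and at 0.41, 0.81 and -0.03 on the lung controls. The difference of -6.17 ± 0.23 (adjusted p = 2.33e-06) was the largest of the enzymes, and its second spot gave -6.00. Sc5d, the desaturase near the end of the route, stood at 6.58, 7.03 and 6.42 in liver and at 1.59, 1.62 and 1.54 in lung. Its difference was -5.09 ± 0.19 (adjusted p = 2.13e-06).

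Dhcr7, which makes cholesterol from its immediate precursor in one branch of the route, stood at 1.24, 1.22 and 1.03 in liver and at -2.58, -2.60 and -3.53 in lung. All 3 lung arrays lay below every liver array, control 6 the furthest, and the difference was -4.07 ± 0.28 (adjusted p = 2.70e-05). Lss, the cyclase that turns squalene epoxide into lanosterol, stood at 3.92, 4.06 and 3.18 in liver and at 0.36, 0.47 and 0.31 in lung. Control 4 was the lowest of the liver controls for Lss, as it was for Hmgcs1 and Sqle. The Lss difference was -3.34 ± 0.25 (adjusted p = 3.87e-05). The remaining ring enzymes differed by -2.62 ± 0.16 (Msmo1, a methyl sterol oxidase), -2.97 ± 0.17 (Nsdhl, which removes methyl groups), -3.38 ± 0.17 (Cyp51, the lanosterol demethylase), -3.41 ± 0.21 (Hsd17b7, a ketosteroid reductase) and -3.58 ± 0.19 (Ebp, a sterol isomerase). All of these were called.

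The regulators did not differ by the same amount. Srebf2 stood at -0.42, -0.53 and -0.51 on the liver controls and at -0.71, -0.93 and -1.13 on the lung controls. The lung arrays were lower without overlap, but by only -0.43 ± 0.15 (95% confidence interval -0.80 to -0.07, adjusted p = 0.0380), close to the -0.28 of the median gene. The call was lost with centring on the array median (-0.23, adjusted p = 0.241), with the second number of the title as a block (adjusted p = 0.0826) and in one fit over all 12 arrays (adjusted p = 0.0546). It was also lost on leaving out any 1 of liver controls 1, 3 and 4 or lung controls 5 and 6, with adjusted p-values from 0.0629 to 0.108. Insig1, itself a target of SREBP-2, stood at 1.82, 2.12 and 1.29 in liver and at -2.31, -2.18 and -2.43 in lung, a difference of -4.05 ± 0.23 (adjusted p = 1.20e-05). Its paralogue Insig2 was lower by -3.15 ± 0.14 and Scap by -2.67 ± 0.16, both called.

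Esterification showed opposite differences for its paralogous enzymes. Soat2, the cholesterol acyltransferase of hepatocytes and intestine, stood at 3.09, 3.53 and 3.20 in liver and at -4.63, -4.74 and -3.88 in lung, a difference of -7.69 ± 0.26 (adjusted p = 1.65e-06). Soat1, the acyltransferase of macrophages and many other cells, stood at -2.77, -1.64 and -1.95 in liver and at 0.91, 0.95 and 0.92 in lung, a difference of 3.05 ± 0.29 (adjusted p = 1.20e-04), or 8.26 times the liver level. The 4 Soat1 spots and the 2 Soat2 spots each shared their sign. Lcat, the plasma enzyme that esterifies cholesterol on lipoproteins and is secreted by the liver, had the largest difference of the 30 genes. It stood at 4.57, 4.35 and 4.71 in liver and at -4.05, -4.85 and -4.00 in lung, a difference of -8.84 ± 0.26 (adjusted p = 9.80e-07).

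The exporters also split. Abca1, which loads cholesterol onto lipid-poor apolipoproteins, stood at 3.57, 3.95 and 3.42 in liver and at 1.41, 1.58 and 2.07 in lung, a difference of -1.96 ± 0.23 (adjusted p = 3.26e-04). Abcg1, which exports cholesterol to mature particles and is abundant in alveolar macrophages, was higher in lung by 3.60 ± 0.20 (adjusted p = 1.12e-05), or 12.1 times the liver level. Mylip was higher by 1.16 ± 0.18 (adjusted p = 1.32e-03). Of the carriers, Stard4 was lower by -2.49 ± 0.23 and Npc1, the lysosomal exporter, by -0.84 ± 0.16, both called. Npc1l1, which takes up sterols from the lumen of gut and bile ducts, was above background on 1 of 3 liver controls and on 3 of 3 lung controls, and its difference of 0.87 ± 0.34 missed the threshold (adjusted p = 0.0548). Its call depended on the setting, with 1.56 (adjusted p = 0.0111) under quantile scaling. Of 8 markers of alveolar macrophages, 7 were called higher in lung. Their summed level ran from 6.98 to 7.46 in lung controls against 3.86 to 4.03 in liver controls. Other markers were called higher too, 9 of 9 for alveolar type 2 cells, 6 of 6 for endothelium and 5 of 7 for mesenchyme. The same held for 5 of 7 markers of T and B cells, 3 of 5 of club cells and 3 of 4 of red cells. None of the 14 hepatocyte or 9 liver macrophage markers was called higher. The part of cell types in these differences was not tested.

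**Figure D2:**
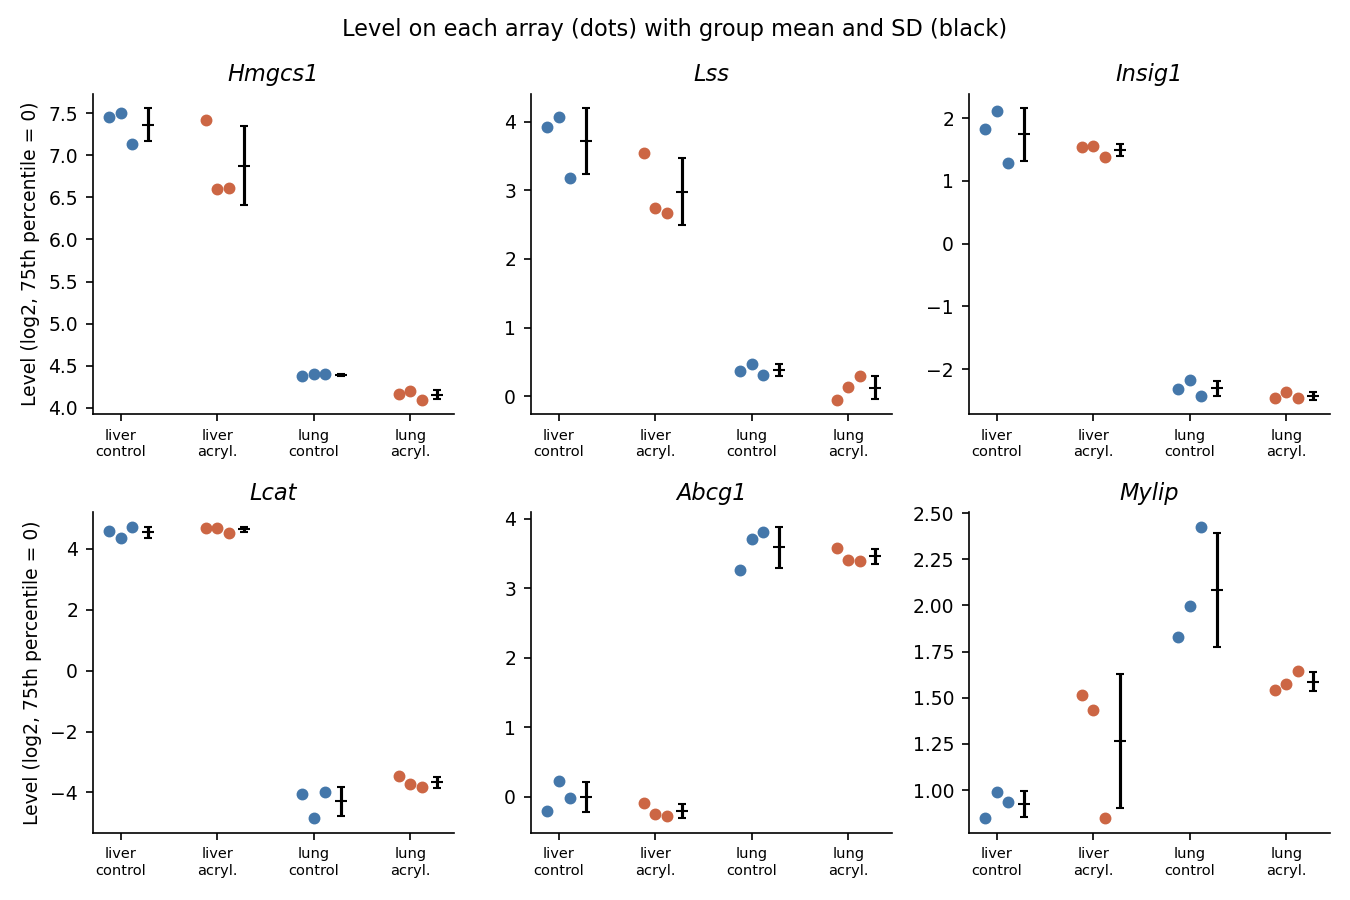
Level of 6 genes on each of the 12 arrays, as log2 intensity with the array's 75th percentile at 0, with blue dots for controls, orange dots for acrylamide (acryl.), and the group mean and SD in black. Each panel has its own axis. Hmgcs1, Lss, Insig1 and Lcat lie higher in liver, Abcg1 lies higher in lung, and Mylip is higher in lung controls than in liver controls.

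In liver, the enzymes ran somewhat lower with acrylamide, and no difference passed the test. In limma's fit none of the 29 genes tested passed the threshold, nor did any of the 21169 genes in the fit (0% called), and Npc1l1, above background on too few liver arrays, was not tested. Of the 17 enzymes 15 were lower with acrylamide and 2 higher, with a median difference of -0.22, whereas 53.1% of all genes were lower, with a median of -0.02. On the spot tested, no gene of the list had groups that did not overlap, against 12.2% of all genes. None reached an unadjusted p under 0.05, against 6.04%.

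Hmgcs1 in liver stood at 7.456, 7.496 and 7.138 on controls 1, 3 and 4 and at 7.41, 6.59 and 6.61 on acrylamide 27, 29 and 30. Acrylamide 27 was as high as the controls and the other two were lower, for a difference of -0.49 ± 0.26 (adjusted p = 0.784). Sqle stood at 4.88, 5.03 and 4.37 on the controls and at 5.27, 4.34 and 3.72 with acrylamide, so that both its highest and its lowest array were treated ones (-0.31 ± 0.42, adjusted p = 0.880). Lss stood at 3.92, 4.06 and 3.18 on the controls and at 3.55, 2.74 and 2.66 with acrylamide. Its difference of -0.74 ± 0.34 (95% confidence interval -1.57 to 0.09, adjusted p = 0.784) was the largest of the list, and all 3 Lss spots were lower.

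Mvd stood at 2.15, 2.28 and 1.21 on the controls and at 2.11, 1.02 and 0.94 with acrylamide. Control 4 lay with the lower treated arrays and acrylamide 27 with the higher controls, and the difference was -0.52 ± 0.43 (adjusted p = 0.831). Mvk stood at -0.78, -1.22 and -0.90 on the controls and at -0.22, -0.67 and -0.81 with acrylamide. On this spot it ran opposite to most of the other enzymes (0.40 ± 0.22, adjusted p = 0.784). The other Mvk spot, outside the rule, was far brighter, with a mean of 4.26 in liver controls, and differed by -0.05. Besides Mvk, Nsdhl was the only enzyme higher with acrylamide (0.08 ± 0.35).

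Most of the liver enzymes were high or low together on an array, across the treatment groups. The median of the 17 enzymes, as a deviation from the mean of the 3 controls, was 0.10, 0.18 and -0.23 on controls 1, 3 and 4 and 0.23, -0.32 and -0.58 on acrylamide 27, 29 and 30. Acrylamide 27 held the highest value for 8 of the 17 enzymes and control 3 for the other 9, against 14.6% and 22.5% of all genes. Acrylamide 30 held the lowest value for 9 of the 17, against 22.1% of all genes, and acrylamide 29 for 5, against 17.7%. Between 2 and 4 of the 17 lay on the other side of the control mean from the rest on each array. Ebp ran opposite to most, lowest on acrylamide 27 (7.48) and at 8.09 on acrylamide 30, and Mvk was lowest on control 3. The 9 transport and ester genes, 8 of them tested here, had medians between -0.19 and 0.26, with -0.04 on acrylamide 30.

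**Figure D3:**
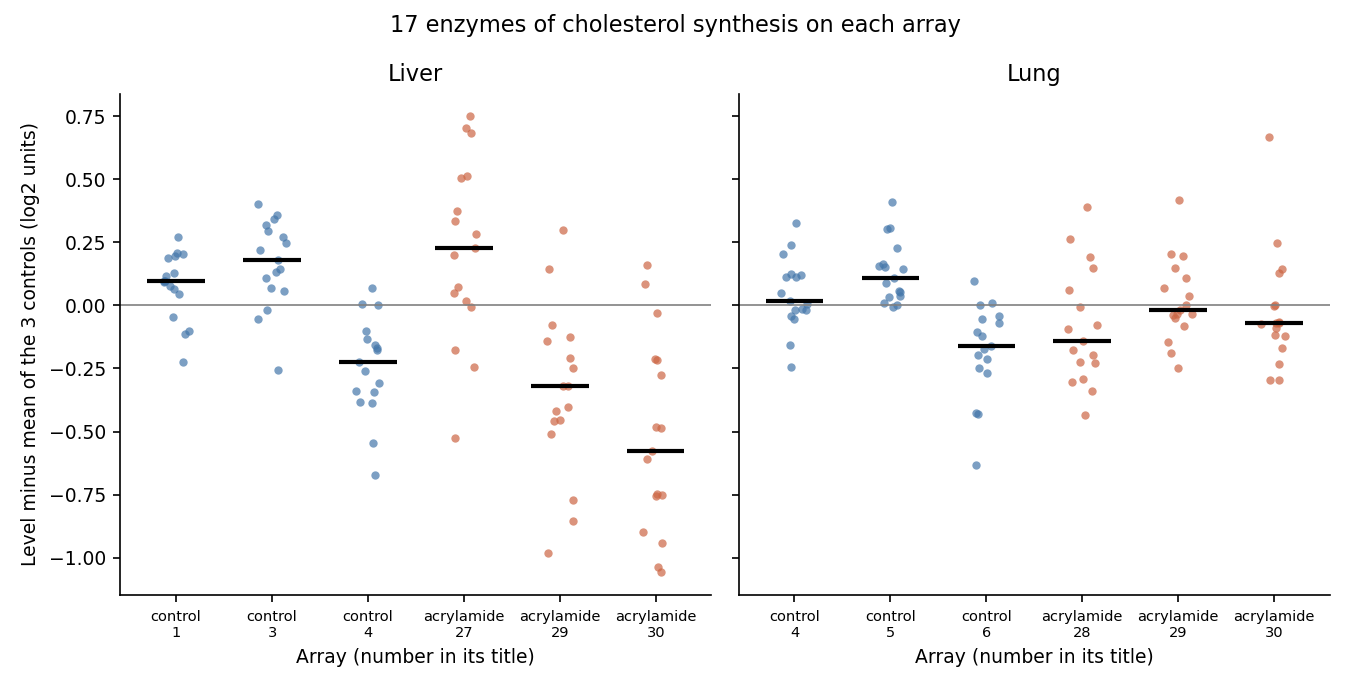
Level of the 17 enzymes on each array minus the mean of that tissue's 3 control arrays, in log2 units, with a dot for each enzyme (blue for controls, orange for acrylamide) and a black line at the median. In liver the medians run from -0.58 on acrylamide 30 to 0.23 on acrylamide 27, while in lung they run from -0.16 on control 6 to 0.11 on control 5.

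Without acrylamide 30, the dim array, 11 of the 17 enzymes were lower, and the enzyme median was -0.09 instead of -0.22. The median of the 29 genes was then -0.04 instead of -0.20, and that of all genes was -0.04. Leaving out acrylamide 27 and 29, the arrays with Sftpc, leaves acrylamide 30 as the only treated array. Against the 3 controls it had 15 of the 17 enzymes lower, with an enzyme median of -0.58 and a median of -0.36 over the 29 genes. How the enzymes run on a treated array with neither the dim signal nor Sftpc therefore cannot be read from these data. When the mean of all spots of a gene was used, 12 of the 17 enzymes were lower, and for 8 of the 14 genes with several spots the spots differed in sign.

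In liver the second number of the title was 2 for acrylamide 29 and control 4, and 1 for the 4 remaining arrays. Within the arrays numbered 1, the median of the 29 genes was -0.21 and 15 of the 17 enzymes were lower. Within the pair numbered 2, the median was -0.02 and 10 of the 17 were lower, with no test. Cell type markers also moved with the groups. The summed level of 9 markers of liver macrophages was 6.33 to 6.46 with acrylamide and 5.78 to 6.21 in controls. That of 7 mesenchymal markers was 6.03 to 6.20 against 6.32 to 6.52, and that of 5 club cell markers 8.37 to 8.53 against 7.90 to 8.29. In liver the club cell sum came mostly from Cyp2f2 and Aldh1a1, neither of them called between untreated lung and liver (0.33 and -0.20). This sum was highest on acrylamide 30 (8.53), where Scgb1a1 stood at -3.92 and Cbr2 at -4.35, so it did not follow those 2 genes. The other marker lists overlapped between the groups. In liver the alveolar type 2 sum came mostly from Abca3 (5.44 to 6.01), so its overlap does not show the raised Sftpc on acrylamide 27 and 29. The summed level of 14 hepatocyte markers was 12.58 on acrylamide 30, the highest of the liver arrays, and 12.06 to 12.44 on the other liver arrays. The part of cell types and of RNA quality in the enzyme values was not tested.

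Of the regulators in liver, Srebf2 stood at -0.42, -0.53 and -0.51 on the controls and at -0.38, -0.80 and -0.99 with acrylamide. Its 2 lowest arrays were acrylamide 29 and 30, the same arrays on which the enzymes were lowest (-0.23 ± 0.19, adjusted p = 0.830). Insig1 stood at 1.82, 2.12 and 1.29 on the controls and at 1.53, 1.56 and 1.38 with acrylamide, so the treated arrays lay inside the range of the controls (-0.25 ± 0.23, adjusted p = 0.843). Insig2 differed by -0.12 ± 0.17 and Scap by 0.07 ± 0.19.

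Soat1 in liver stood at -2.77, -1.64 and -1.95 on the controls and at -3.38, -3.46 and -1.72 with acrylamide. Acrylamide 27 and 29 were low and acrylamide 30 lay with the controls, for a difference of -0.74 ± 0.55 (adjusted p = 0.814). With acrylamide 30 as the only treated array it was 0.40. The other Soat1 spots gave -0.03, 0.25 and -0.15, the 0.25 from the dimmest spot, above background on 4 liver arrays. Soat2 stood at 3.09, 3.53 and 3.20 on the controls and at 3.26, 3.55 and 3.37 with acrylamide (0.12 ± 0.17, adjusted p = 0.892). Abca1 stood at 3.57, 3.95 and 3.42 on the controls and at 3.73, 3.63 and 3.24 with acrylamide (-0.11 ± 0.21, adjusted p = 0.918). On these spots, treated and control arrays were mixed for both genes. The second Soat2 spot, which was dimmer, was higher on every treated array than on every control, by 0.66. The second Abca1 spot, far dimmer, differed by -0.80 with overlapping groups. With the mean of spots the differences were 0.39 (Soat2) and -0.46 (Abca1), neither called. Mylip, high in lung, was 0.34 ± 0.21 higher with acrylamide, and was -0.07 with acrylamide 30 as the only treated array. The others differed by -0.33 ± 0.24 (Stard4), -0.20 ± 0.16 (Abcg1), 0.09 ± 0.15 (Lcat) and 0.23 ± 0.20 (Npc1).

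In lung, limma's fit again gave no call among the 30 genes, nor among all 22252 genes tested (0% called). Of the enzymes, 11 of the 17 were lower and 6 higher, with a median of -0.07 against -0.01 for all genes, of which 51.7% were lower. For 7 of the 30 genes the groups did not overlap on the spot tested. With acrylamide 3 of these were higher (Lcat, Mvk and Pmvk) and 4 lower (Hmgcs1, Lss, Stard4 and Mylip), against 4.09% and 6.85% of all genes. At an unadjusted p under 0.05, 2 genes were lower (Mylip and Hmgcs1) and 1 higher (Lcat), against 3.13% and 1.82% of all genes.

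**Figure D4:**
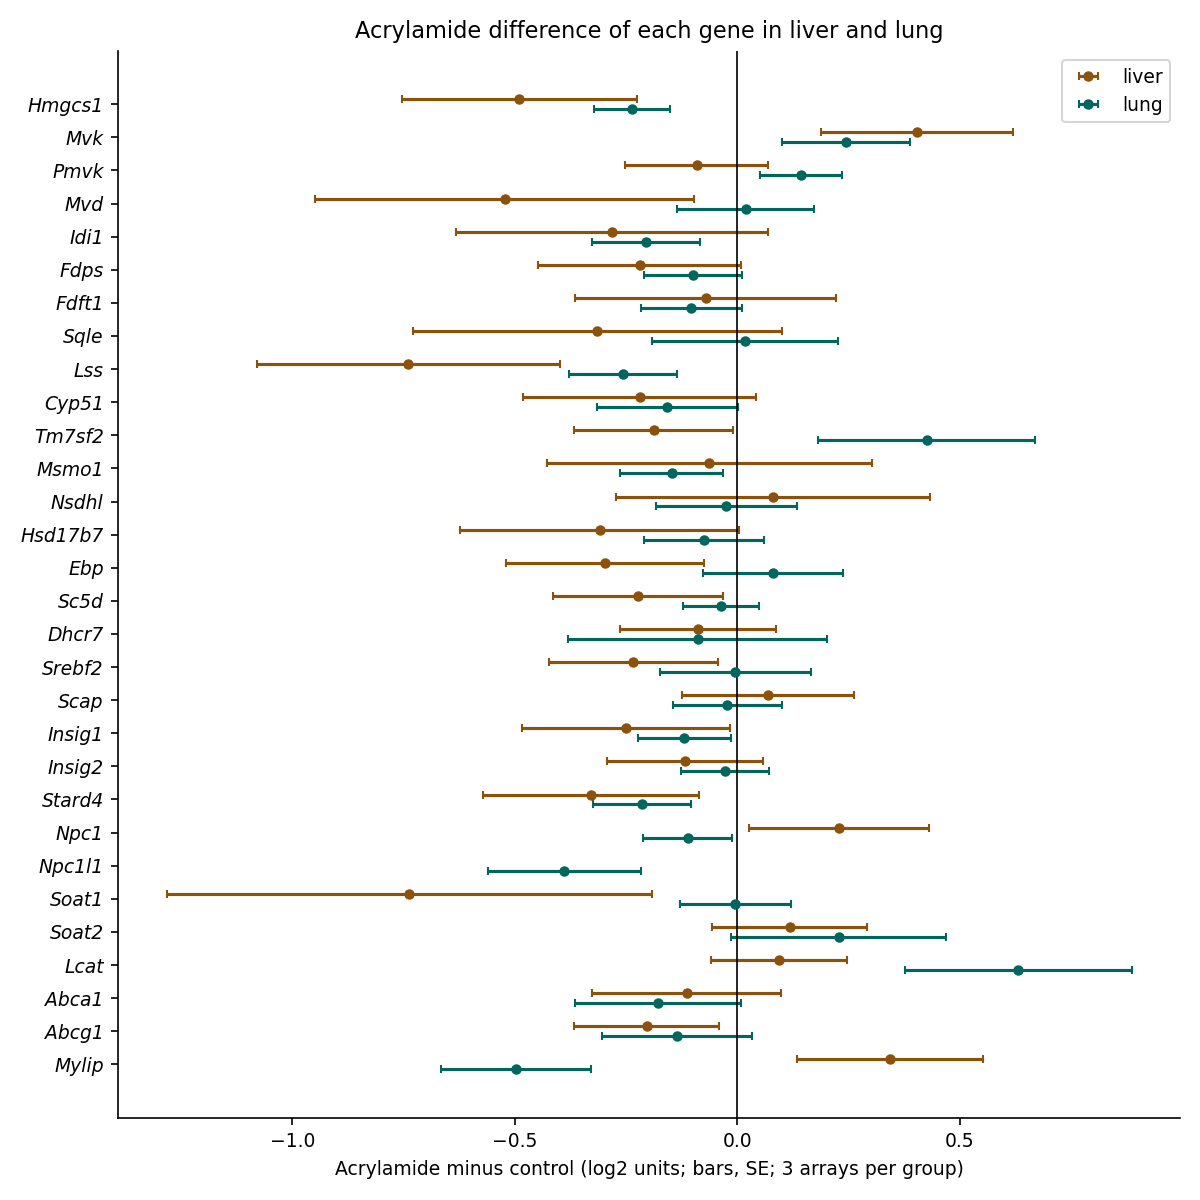
Acrylamide minus control for each gene in liver (brown) and lung (teal), in log2 units, with standard errors as bars and 3 arrays in each group. The enzymes lie mostly below 0 in liver and closer to 0 in lung, Lcat and Tm7sf2 lie highest in lung at 0.63 and 0.43, Npc1l1 has no liver point, and Soat1 is read from a different spot in each tissue.

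Hmgcs1 in lung stood at 4.38, 4.40 and 4.40 on controls 4, 5 and 6 and at 4.17, 4.20 and 4.10 on acrylamide 28, 29 and 30. Every treated array was below every control, by little: -0.24 ± 0.09 (95% confidence interval -0.45 to -0.03, unadjusted p = 0.0336, adjusted p = 0.998). Its second, far dimmer spot differed by 0.05. Lss stood at 0.36, 0.47 and 0.31 on the controls and at -0.05, 0.13 and 0.29 with acrylamide, a difference of -0.26 ± 0.12 (adjusted p = 0.998), and acrylamide 30 nearly reached the lowest control. Sqle stood at 2.90, 3.08 and 2.34 on the controls and at 2.83, 2.88 and 2.66 with acrylamide, with no separation (0.02 ± 0.21). Mvk stood at -2.54, -2.16 and -2.20 on the controls and at -1.91, -2.10 and -2.15 with acrylamide, and so was higher on all 3 treated arrays, as its mean was in liver (0.24 ± 0.14, adjusted p = 0.998). The other Mvk spot had means of 2.66 in both lung groups.

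Tm7sf2 in lung stood at 0.41, 0.81 and -0.03 on the controls and at 0.59, 0.81 and 1.06 with acrylamide. Controls and treated arrays met at 0.81, and the difference was 0.43 ± 0.24 (adjusted p = 0.998). It was 0.02 within the arrays whose second title number is 1 (acrylamide 28 and 30 and control 5) and 0.62 within those numbered 2 (acrylamide 29 and controls 4 and 6). The second Tm7sf2 spot, which was dimmer, was higher on every treated array than on every control, by 0.31. Over the 30 genes the median was -0.15 within the arrays numbered 1 and 0.01 within those numbered 2, against -0.08 in all. The other enzymes differed by between -0.20 (Idi1) and 0.14 (Pmvk).

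The 4 regulators in lung differed by between -0.12 and 0.00, none with groups apart. Srebf2 stood at -0.71, -0.93 and -1.13 on the controls and at -1.09, -0.66 and -1.03 with acrylamide, with the highest value on a treated array (0.00 ± 0.17, 95% confidence interval -0.42 to 0.41). Insig1 stood at -2.31, -2.18 and -2.43 on the controls and at -2.46, -2.36 and -2.46 with acrylamide, a difference of -0.12 ± 0.10. Insig2 differed by -0.03 ± 0.10 and Scap by -0.02 ± 0.12.

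Mylip had the largest difference downward in lung. It stood at 1.830, 1.997 and 2.427 on the controls and at 1.54, 1.57 and 1.65 with acrylamide. The treated arrays were close to each other and below every control, by -0.50 ± 0.17 (95% confidence interval -0.91 to -0.08, unadjusted p = 0.0263, adjusted p = 0.978). Without control 6, the highest control, the difference was -0.33.

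Lcat had the largest difference upward. It stood at -4.05, -4.85 and -4.00 on the controls and at -3.47, -3.71 and -3.82 with acrylamide, a difference of 0.63 ± 0.25 (unadjusted p = 0.0486, adjusted p = 0.998). Without control 5, the lowest control, the difference was 0.36, and it was 1.201 within the arrays numbered 1 and 0.31 within those numbered 2. Other hepatocyte genes ran the same way: 14 of 14 hepatocyte markers were higher in lung with acrylamide, against 48.3% of all genes. Their median was 0.39, and none reached an unadjusted p under 0.05, against 4.95% of all genes. With acrylamide their summed level was 3.78 (array 28), 3.78 (array 29) and 2.74 (array 30), whereas the controls had 2.84 (array 4), 2.52 (array 5) and 3.50 (array 6). Lcat was highest on acrylamide 28 and lowest on control 5, which also held the highest and the lowest summed level. Acrylamide 30 ran otherwise: its summed level lay below controls 4 and 6, while its Lcat value lay above every control. The part of hepatocyte RNA in the Lcat value was not tested.

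Among the other handling genes in lung, Npc1l1 stood at -6.31, -6.67 and -6.18 on the controls and at -6.75, -6.60 and -6.98 with acrylamide. These levels were low but above background on all 6 lung arrays, and the difference was -0.39 ± 0.17 (adjusted p = 0.998). Soat1 stood at 1.29, 1.18 and 0.99 on the controls and at 1.26, 1.01 and 1.17 with acrylamide, with no shift (0.00 ± 0.12, 95% confidence interval -0.31 to 0.30). The Soat1 spot used in liver differed by -0.36 in lung. Soat2 stood at -4.63, -4.74 and -3.88 on the controls and at -4.20, -4.09 and -4.28 with acrylamide (0.23 ± 0.24, adjusted p = 0.998). Abca1 stood at 1.41, 1.58 and 2.07 on the controls and at 1.52, 1.42 and 1.58 with acrylamide (-0.18 ± 0.19), and its control 6 stood apart upward. Stard4 was lower by -0.21 ± 0.11, Abcg1 by -0.14 ± 0.17 and Npc1 by -0.11 ± 0.10.

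Whether acrylamide differed in its effect between the tissues was tested as the lung difference minus the liver difference over all 12 arrays. In limma's fit none of the 30 genes was called, nor any of 23300 genes (0% called), and 1 gene, Mylip, was lower at an unadjusted p under 0.05, against 2.27% of all genes. The value was above 0 for 20 of the 30, against 49.8% of all genes, with a median of 0.11. That median was -0.02 without liver control 3, 0.05 without liver acrylamide 30, 0.22 without liver acrylamide 27 and 0.19 without liver control 4. Mylip had the largest value, -0.84 ± 0.28 (unadjusted p = 0.0128, adjusted p = 0.994), from 0.34 in liver and -0.50 in lung. With arrays weighted by their quality it was -0.998 and called (adjusted p = 0.0436), as were 139 genes in all. Tm7sf2 had 0.61 ± 0.31, Mvd 0.54 ± 0.49 and Lcat 0.54 ± 0.31, each with an adjusted p of 0.994. Npc1l1 had -0.77 ± 0.87, with liver arrays mostly below background.

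Genes around the route were read from 3 further lists, whose counts stand beside 42.4% of all genes called lower and 32% called higher in untreated lung, with a median of -0.28. Of 16 genes for the supply of acetyl-CoA and for isoprenoid branches, 10 were called lower and 2 higher in untreated lung, with a median of -0.58. Acss2, which makes acetyl-CoA from acetate, differed by -3.45 ± 0.25 and Acat1, the mitochondrial thiolase, by -3.39 ± 0.15. Of 12 genes for SREBP processing and sterol sensing, 6 were called lower and 2 higher, with a median of -0.51, so that the share called lower was near that of all genes. Nfya, a subunit of the CCAAT-binding factor NF-Y, was 2.27 ± 0.18 higher in lung, whereas Srebf1, which encodes the SREBP of fatty acid synthesis, was lower by -2.13 ± 0.16. Of 18 genes for trafficking and lipoproteins, 11 were called lower and 6 higher, with a median of -1.96. Abcg5, part of the transporter that secretes sterols into bile, differed by -9.08 ± 0.31, and Cav1, the coat protein of caveolae, by 7.28 ± 0.63.

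With acrylamide, limma called no gene of these lists in either tissue. An unadjusted p under 0.05 was reached in liver by 1 of 15 genes of the acetyl-CoA list, 0 of 12 of the SREBP list and 2 of 18 of the trafficking list, against 6.04% of all genes. In lung it was reached by 1 of 16, 1 of 12 and 1 of 18, against 4.95%. In liver the medians were -0.08 (11 of 15 tested genes lower), -0.06 (8 of 12 lower) and 0.03 (9 of 18 lower). The largest liver differences in each list were -0.55 ± 0.27 for Ggps1, which makes geranylgeranyl diphosphate, and 0.51 ± 0.17 for Pdss2, which builds the side chain of coenzyme Q. For SREBP processing they were -0.32 ± 0.34 for the ubiquitin ligase gene Syvn1 and 0.26 ± 0.16 for Nfya, and for trafficking 0.49 ± 0.14 for the carrier gene Stard5 and -0.40 ± 0.15 for Gramd1b, whose product moves cholesterol from the plasma membrane to the endoplasmic reticulum.

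In lung the medians were -0.03 (9 of 16 lower), -0.08 (10 of 12 lower) and 0.00 (9 of 18 lower). The largest lung differences were -0.54 ± 0.69 for the isomerase gene Idi2 and -0.32 ± 0.18 for Aacs, which activates acetoacetate, then -0.28 ± 0.10 for Srebf1 and -0.20 ± 0.10 for Erlin2, and -0.33 ± 0.11 for the sterol-binding protein gene Osbp and 0.30 ± 0.16 for Stard5. Between the tissues the largest values were -0.91 ± 0.94 (Idi2, above background on too few liver arrays to be tested there) and -0.57 ± 0.22 (Pdss2), -0.41 ± 0.22 (Nfya) and -0.22 ± 0.14 (Erlin2), and 0.60 ± 0.17 (Gramd1b) and -0.40 ± 0.36 (Abcg5), none of them called.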

How the data were processed

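Each deposited file gives a linear Cy3 intensity per spot, for 62976 spots. The submitters' processing notes name Agilent Feature Extraction 10.7 and no background step. The series matrix deposited by the authors holds the same intensities times 1 factor per array. The 1319 control spots were left out, the 75th percentile of each array was subtracted on the log2 scale, and spots above the 95th percentile of the 308 negative controls on at least 3 arrays of a fit were tested, each gene by its spot with the highest mean. Symbols came from RefSeq (GRCm38.p6) through the Entrez number for 38054 spots and the accession for 714, otherwise from the file (2242). No probe identifier, flag or scan date was used. Arrays were fitted with limma 3.58.1 (lmFit, eBayes) in R 4.3.3: acrylamide minus control within each tissue, untreated lung minus untreated liver, and the interaction over 12 arrays. Adjusted p-values are Benjamini-Hochberg over all genes, with 0.05 as threshold, and the code was tested on simulated data. With 3 arrays in a group, their number sets the precision.

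The genes and the lists around them were chosen with earlier results of these data known. Every gene of the list may be named, with values by array for 8 set genes (Hmgcs1, Sqle, Lss, Srebf2, Insig1, Abca1, Soat1, Soat2) and the 5 with the largest difference in each comparison, and 2 genes of each further list. Excluding the Mvk spot known only by its accession was decided after its values were seen. A summed marker level is log2 of the markers' summed intensity over the 75th percentile. As alternatives, results were recomputed with the series matrix, quantile scaling, centring on the median, other background filters, the mean of spots, an intensity trend, arrayWeights, title numbers as blocks, one fit of 12 arrays, each array left out and arrays with the same second title number, of which the value within number 2 was added after seeing the data. Array numbers 4, 29 and 30 occur in both tissues.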

Additional observations from a re-analysis of the deposited data

How the results depend on the processing

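No gene of the list was called in either acrylamide comparison under any alternative with a test, and between the tissues 1 gene (Mylip) was called with arrayWeights. In untreated tissue 28 to 30 of 30 genes were called and 26 were lower under every alternative. Their median of -2.95 became -2.39 with quantile scaling, -2.75 with median scaling, -2.70 with the mean of spots, -2.76 with arrayWeights, -2.79 with the second title number as a block and -3.07 to -2.81 with an array left out, while the median of all genes moved from -0.28 to 0.01 with quantile scaling and -0.07 with median scaling. The lung acrylamide median of -0.08 ranged from -0.13 to -0.038 with an array left out and was -0.15 within second title number 1 and 0.0095 within number 2, where 14 genes were lower. The liver acrylamide median ranged from -0.36 (acrylamide 30 as the only treated array) to -0.02, and the median between the tissues, 0.11, from -0.02 to 0.22 with an array left out.

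Many differences that missed the threshold changed sign, and the cause was not tested. Of 29 genes in liver, 4 changed sign with the mean of spots (Stard4 from -0.33 to 0.042 among them), 6 without acrylamide 30 and 8 within second title number 2 (Idi1 from -0.28 to 0.024 among them). Of 30 in lung, up to 6 did with an array left out and 8 within number 2. Values follow for the genes with values by array. In liver, Abca1 was 0.090 with arrayWeights and Soat1 was 0.40 with acrylamide 30 as the only treated array, and with 1 array left out Abca1 ranged from -0.23 to 0.039 and Sqle from -0.73 to 0.047. In lung, Sqle was -0.023 with median scaling, -0.072 with arrayWeights, -0.037 with the title block and -0.34 within number 1, and Srebf2 was 0.052 with arrayWeights, 0.063 with the block and 0.26 within number 2. Soat1 was 0.032 within number 1 and Insig1 0.014 within number 2. With arrays left out, lung values ranged from -0.20 to 0.17 (Sqle), -0.14 to 0.10 (Srebf2), -0.089 to 0.064 (Soat1) and -0.32 to 0.016 (Abca1). Between the tissues, Abca1 was 0.32 and Soat2 -0.31 with the mean of spots, and Insig1 was -0.10 and Npc1l1 0.15 with arrayWeights. With arrays left out, values between the tissues ranged from -0.22 to 0.13 (Abca1), -0.030 to 0.74 (Sqle), -1.33 to 0.083 (Npc1l1), -0.058 to 0.36 (Insig1), -0.022 to 0.52 (Soat1) and -0.052 to 0.38 (Soat2), and 3 to 17 of 30 genes were lower.

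The deviations of arrays with the same number in both tissues correlated at 0.01 (4), -0.02 (29) and -0.16 (30), which does not settle whether a number names a mouse, and the arrays were not treated as pairs. With that number as a replicate block in one fit, the median was -2.98 in untreated tissue, where Srebf2 was -0.45 (adjusted p = 0.0559) and 28 genes were called, and 0.11 between the tissues, with 0 called. Within a tissue, control and acrylamide arrays share no number, so no paired analysis was possible there. Signal near background limits Npc1l1 and liver acrylamide 30.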
